A study of Mus musculus with 9 samples.

Results

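The 10 genes described here encode major urinary proteins: Mup1, Mup3, Mup7, Mup9, Mup10, Mup11, Mup12, Mup17, Mup20 and Mup21. They were taken by name from a count table of 55401 genes, in which 49 entries carry a Mup name, and all 10 had at least 1 count. RNA of the left liver lobe of 9 mice had been sequenced from the 3′ end (QuantSeq), with 3 mice in each of 3 groups. STAM + Atglistatin mice received 200 µg streptozotocin under the skin at 2 days of age, which damages the insulin-producing cells, and from 4 weeks of age a high-fat diet containing Atglistatin, an inhibitor of adipose triglyceride lipase, for 4 weeks. STAM mice had the same injection and the same diet without Atglistatin. Chow mice had neither streptozotocin nor Atglistatin and ate chow. The description gives male pups for the injected mice, and does not state the sex of the chow mice or the strain. The treatment field of the STAM and chow samples goes against their titles and the description, and the titles were used. The samples are bulk liver, so fewer cells of a type and less RNA per cell cannot be told apart.

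Major urinary proteins are small secreted lipocalins, barrel-shaped carriers of hydrophobic ligands. Mouse liver makes them in large amounts, more in males than in females, and they pass through the blood into urine, where they bind volatile pheromones and release them slowly. Growth hormone, released in pulses in males, is the main hormonal driver of their transcription, acting through its receptor and the transcription factor STAT5b, with thyroid hormone and glucocorticoids as further inputs. The genes fall into a central class of near-identical copies and a peripheral class of older, more divergent copies. Mup1, Mup7, Mup9, Mup10, Mup11, Mup12 and Mup17 belong to the central class, and Mup3, Mup20 and Mup21 to the peripheral class. Mup20 encodes darcin, a male pheromone that attracts females.

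All 10 genes lie on the minus strand of chromosome 4 in the mouse build GRCm38 and are protein coding in GENCODE M21. The annotation holds 48 Mup-named genes between positions 59956804 and 62150863, a stretch of 2.19 Mb, of which 22 are protein coding. In order along the chromosome, Mup7 spans 60066469 to 60070475, Mup9 60418046 to 60421952, Mup1 60498012 to 60501960, Mup10 60578260 to 60582199, Mup11 60658466 to 60662411 and Mup12 60737383 to 60741326. Mup17 follows at 61591929 to 61595871. The 3 peripheral members lie together at the far end, with Mup20 at 62050234 to 62054158, Mup3 at 62083476 to 62087342 and Mup21 at 62147932 to 62150863.

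The promoters show how alike the copies are at the place where transcription starts. RefSeq promoter sequences on GRCm38.p6, covering 250 bases before to 50 after the annotated start, were matched for 7 members, Mup3, Mup7, Mup9, Mup10, Mup11, Mup17 and Mup21. Those of 4 members are printed 5′ to 3′ on the minus strand, 2 of the central class (Mup11 and Mup9) and 2 of the peripheral class (Mup3 and Mup21), because the classes differ in the results. Capitals mark the core ATCAAT, which is the binding core of Onecut1 (HNF6), a liver transcription factor, and TATAA, the core letters of a TATA box. Capitals are matches of letters only, and some TATAA matches lie at or after the annotated start (0 in Mup11, 33 in Mup3), so they are not read as TATA boxes or bound sites. The positions are chr4:60662346-60662645 for Mup11, chr4:60421903-60422202 for Mup9, chr4:62087268-62087567 for Mup3 and chr4:62150792-62151091 for Mup21.
Mup11: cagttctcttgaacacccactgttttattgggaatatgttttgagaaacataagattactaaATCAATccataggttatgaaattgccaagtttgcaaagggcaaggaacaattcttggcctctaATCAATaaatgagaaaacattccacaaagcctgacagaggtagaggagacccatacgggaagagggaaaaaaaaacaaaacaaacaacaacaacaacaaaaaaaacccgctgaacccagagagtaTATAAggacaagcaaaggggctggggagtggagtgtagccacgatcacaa
Mup9: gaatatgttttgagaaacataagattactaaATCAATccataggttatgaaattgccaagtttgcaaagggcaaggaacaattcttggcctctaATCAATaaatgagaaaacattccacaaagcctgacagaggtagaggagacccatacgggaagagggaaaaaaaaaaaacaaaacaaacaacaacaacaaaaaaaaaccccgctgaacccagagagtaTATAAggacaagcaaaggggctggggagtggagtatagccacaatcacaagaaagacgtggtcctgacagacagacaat
Mup3: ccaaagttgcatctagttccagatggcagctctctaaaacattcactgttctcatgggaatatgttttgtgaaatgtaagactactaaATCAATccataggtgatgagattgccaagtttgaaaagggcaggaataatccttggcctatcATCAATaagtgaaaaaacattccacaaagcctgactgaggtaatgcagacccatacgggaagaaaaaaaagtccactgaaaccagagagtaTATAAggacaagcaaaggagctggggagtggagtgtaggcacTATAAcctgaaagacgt
Mup21: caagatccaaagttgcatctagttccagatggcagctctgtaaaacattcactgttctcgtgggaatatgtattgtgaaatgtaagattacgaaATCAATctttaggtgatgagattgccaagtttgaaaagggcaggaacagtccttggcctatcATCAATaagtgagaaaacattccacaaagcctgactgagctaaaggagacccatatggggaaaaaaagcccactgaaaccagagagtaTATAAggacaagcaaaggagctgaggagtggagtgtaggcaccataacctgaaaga

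Aligned over their overlap, gaps not counted, the Mup11 and Mup9 promoters were 98.9% identical and those of Mup11 and Mup17 99.6%. The Mup3 and Mup21 promoters were 94.2% identical, while Mup11 shared 87.5% with Mup3 and 86.3% with Mup21. ATCAAT, searched on both strands (also as ATTGAT), occurred 2 times in each of the 7 promoters, 63 bases apart in the 5 central ones and 62 bases apart in Mup3 and Mup21. At least 1 copy was present in 7.54% of 32851 promoters and at least 2 copies in 0.694%. TATAA or TTATA was found in 6 of the 7, against 24.9% of all promoters. Neither the STAT5 consensus TTCNNNGAA (8.30% of all promoters) nor the C/EBP consensus TTGCNNAA (10.8%; TTNNGCAA on the other strand) occurred in these windows. ATCAAT was picked after the sequences had been read, and the 7 promoters are copies of one another, so the count describes the family's shared sequence.

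Copies this alike limit how 3′ reads can be assigned. Over aligned bases, gaps not counted, transcripts of central members were 98.3% to 99.7% identical over 21 pairs. Central against peripheral transcripts were 86.1% to 91.1% identical over 21 pairs. In the last 300 bases of each transcript, the part that QuantSeq reads, windows of 50 bases were looked up in the transcripts of all other genes. None of the 251 windows was unique to Mup1, Mup7 or Mup10, and a window could be shared with up to 18 other genes. The unique share was 17.9% for Mup12, 25.5% for Mup9, 38.6% for Mup11 and 56.6% for Mup17. It reached 82.1% for Mup21, 91.2% for Mup20 and 93.6% for Mup3. How the authors treated reads that map to several copies is not given in the sources used here, so values of single central members are uncertain, and sums over the class are given beside them.

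**Figure D1:**
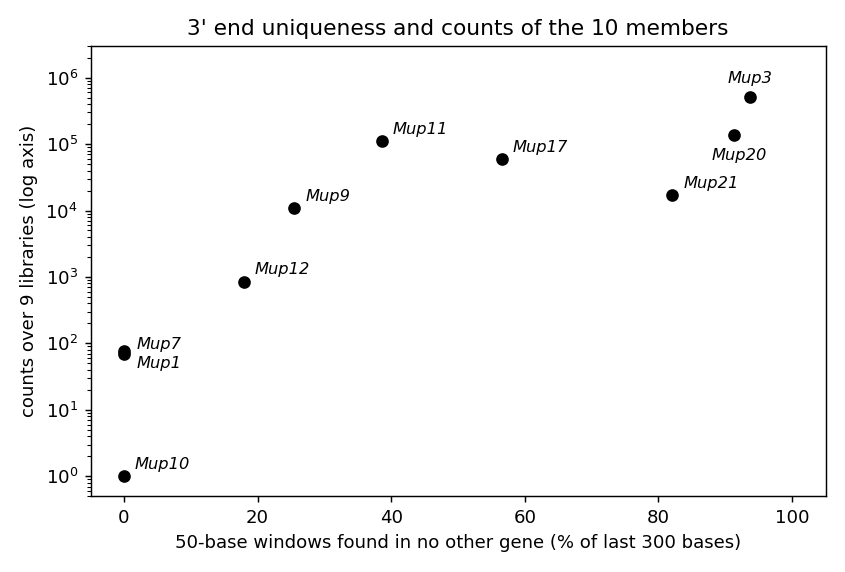
Counts summed over the 9 libraries (vertical, log axis) against the share of 50-base windows in the last 300 transcript bases that occur in no other gene (horizontal, %). Each point is 1 of the 10 members; Mup1, Mup7 and Mup10, with 0 unique windows, had the fewest counts.

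Mup1, Mup7 and Mup10 were nearly uncounted. Mup1 had 0, 0 and 5 counts in STAM + Atglistatin livers, 19, 2 and 4 in STAM livers and 5, 20 and 21 in chow livers. Mup7 had 0, 0 and 1 counts in STAM + Atglistatin livers, 9, 4 and 0 in STAM livers and 6, 30 and 18 in chow livers. The single Mup10 count was in a chow library. With no unique window at their 3′ ends, these low values do not show that the genes were silent. Mup7 and Mup10 did not pass the low-count filter, which left 8 members among 12660 tested genes.

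The 10 members together took 0.520% ± 0.029 of counts in STAM + Atglistatin livers, 1.33% ± 0.0739 in STAM livers and 1.42% ± 0.368 in chow livers (SD, n = 3 each). As counts per 1000000 library counts (CPM, with TMM scaling), the family sum was 5371, 4788 and 5136 in STAM + Atglistatin livers, 11963, 12806 and 14338 in STAM livers, and 9754, 16426 and 18726 in chow livers. Every STAM + Atglistatin library lay below every STAM and every chow library, while the STAM values fell within the chow range. The mean was 2.56-fold lower in STAM + Atglistatin than in STAM livers and 2.94-fold lower than in chow livers. STAM livers stood at 0.871 times the chow mean, and this ratio moved between 0.742 without chow replicate 7 and 0.996 without chow replicate 9.

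The class sums were read separately. The 7 central members summed to 491, 394 and 564 CPM in STAM + Atglistatin livers, 3645, 4034 and 3825 CPM in STAM livers and 2053, 2581 and 4197 CPM in chow livers. This class sum was 7.94-fold lower in STAM + Atglistatin than in STAM livers. For the 3 peripheral members the sums were 4880, 4394 and 4572 CPM in STAM + Atglistatin livers, 8318, 8771 and 10513 CPM in STAM livers, and 7702, 13845 and 14529 CPM in chow livers. Their sum was 1.99-fold lower in STAM + Atglistatin than in STAM livers. Both classes separated STAM + Atglistatin from STAM libraries without overlap. Against chow, the STAM central sum was 1.30 times as high and the STAM peripheral sum 0.765 times as high, with overlapping libraries in both classes. Leaving out Mup3, which holds most of the peripheral counts, turned the peripheral ratio of STAM to chow to 1.22.

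The libraries held between 7409090 and 9911855 counts. Hepatocyte markers were present throughout, with summed levels of 72730 to 73606 CPM in STAM + Atglistatin, 52569 to 62385 CPM in STAM and 91597 to 105480 CPM in chow livers for 8 of 8 markers. The difference between the STAM groups rested on Alb (albumin): without it the 7 other markers summed to 27458 ± 1110 CPM in STAM + Atglistatin and 27873 ± 2810 CPM in STAM livers (SD, n = 3 each), with overlapping libraries, and the median log2 fold change of the 8 markers was −0.16. In chow livers the 7 summed to 40428 ± 4270 CPM. By edgeR, Alb was higher in STAM + Atglistatin than in STAM livers (log2 0.63 ± 0.10, adjusted p = 0.00159), and Apob and Serpina1c were lower. Macrophage markers summed to 281 to 405 CPM in STAM + Atglistatin, 299 to 339 CPM in STAM and 264 to 389 CPM in chow livers, and adipocyte markers to at most 3.01, 0.24 and 4.21 CPM in the same groups, with Lep at 0 in all libraries. The share of mitochondrially encoded counts was 8.64% to 9.73% in STAM + Atglistatin, 11.0% to 11.6% in STAM and 7.32% to 8.78% in chow livers. The part of these differences in the Mup values was not tested.

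**Figure D2:**
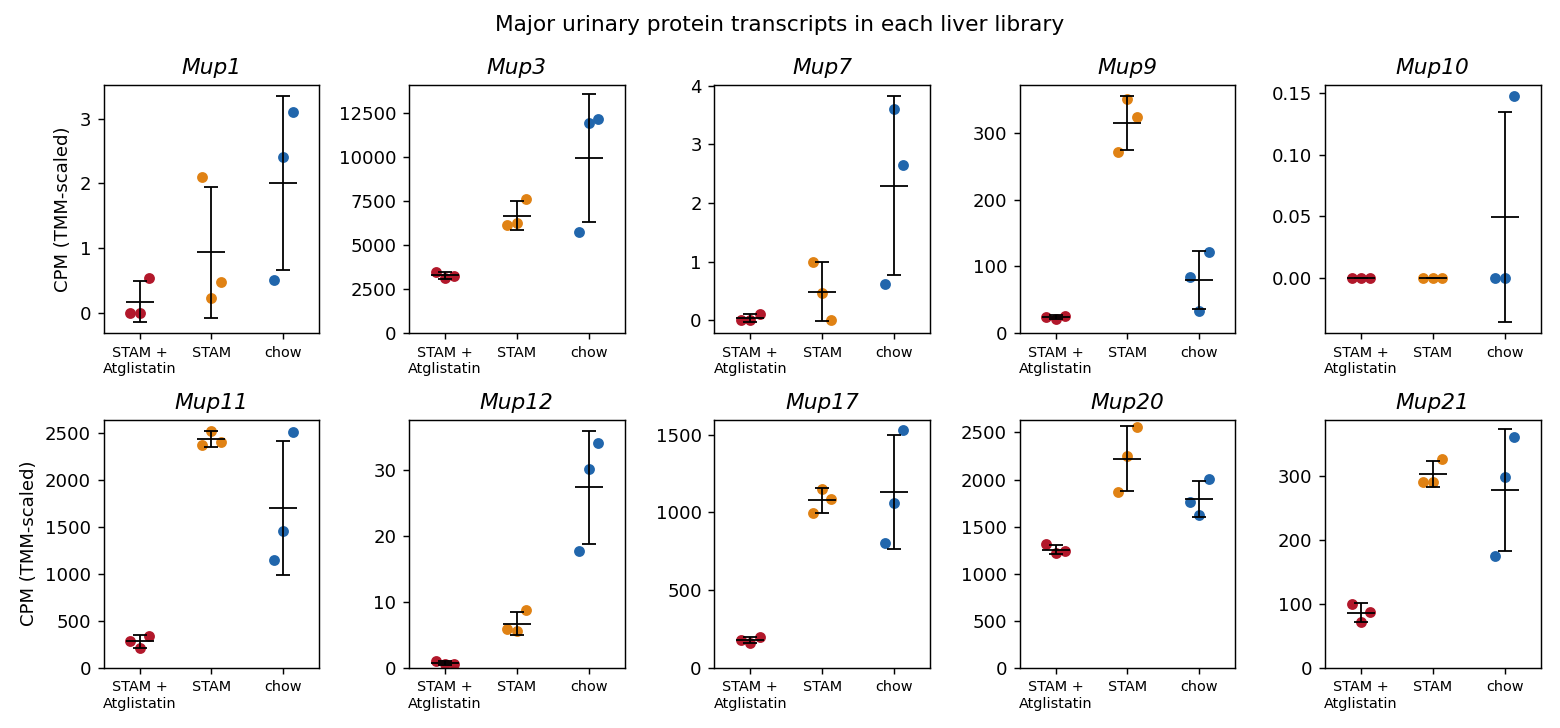
CPM (TMM-scaled) of each member in every liver library; points are libraries, horizontal bars the group means and error bars the SD (n = 3), with a separate vertical scale per gene. In Mup3, Mup9, Mup11, Mup12, Mup17, Mup20 and Mup21 the 3 STAM + Atglistatin libraries sit below all STAM and all chow libraries.

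Of the 8 tested members, 7 were lower in STAM + Atglistatin than in STAM livers by edgeR's quasi-likelihood test (adjusted p under 0.05, Benjamini-Hochberg over 12660 genes) and 0 were higher. Over all tested genes 1.79% were called in this comparison, 0.742% as lower and 1.04% as higher. The same 7 members separated the 2 groups without overlap, which 17% of all tested genes did, 8.45% with STAM + Atglistatin lower. The median log2 fold change was −2.47 over the 8 members, beside −9e-04 over all tested genes. No labels say whether the 3 mice of a group came from separate litters or cages, so p-values cover the spread between these libraries.

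Among central members, Mup9 had 24.04, 21.1 and 26.2 CPM in STAM + Atglistatin livers, against 272, 351 and 324 CPM in STAM livers. It was 13.3-fold lower (log2 fold change −3.73 ± 0.31 SE, edgeR adjusted p = 1.09e-06), the lowest ratio among the called members. Mup11, the central member with the most counts, had 289, 211 and 340 CPM in STAM + Atglistatin livers, against 2368, 2524 and 2407 CPM in STAM livers. The STAM libraries were close together, and the STAM + Atglistatin ones were 8.68-fold lower (log2 −3.12 ± 0.23, edgeR adjusted p = 2.22e-07). Mup17 had 177, 161 and 196 CPM in STAM + Atglistatin livers, against 996, 1152 and 1085 CPM in STAM livers. That was 6.05-fold lower (log2 −2.60 ± 0.18, edgeR adjusted p = 1.24e-07). Mup12, a low member, had 1.002, 0.517 and 0.648 CPM in STAM + Atglistatin livers, against 5.85, 5.54 and 8.76 CPM in STAM livers. Its log2 fold change was −3.19 ± 0.39 (edgeR adjusted p = 7.57e-05), on 10, 5 and 6 counts in STAM + Atglistatin and 53, 47 and 73 counts in STAM livers, and limma-voom gave an adjusted p of 0.065. Mup1 did not pass the test (log2 −2.34 ± 1.24, edgeR adjusted p = 0.568).

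Peripheral members, whose 3′ ends are mostly unique, had smaller fold changes in Mup3 and Mup20. Mup3 held the most counts of the family, with 3469.6, 3108 and 3244 CPM in STAM + Atglistatin livers, against 6164, 6234 and 7632 CPM in STAM livers. It was 2.04-fold lower (log2 −1.03 ± 0.20, edgeR adjusted p = 0.0071), and the adjusted p was 0.0696 without STAM + Atglistatin replicate 5. Mup20, the darcin gene, had 1310.4, 1215 and 1240.4 CPM in STAM + Atglistatin livers, against 1864, 2246 and 2554 CPM in STAM livers. It was 1.77-fold lower (log2 −0.82 ± 0.13, edgeR adjusted p = 0.000969). Mup21 had 100.3, 71.4 and 87.8 CPM in STAM + Atglistatin livers, against 291, 291 and 327 CPM in STAM livers, and was 3.50-fold lower (log2 −1.81 ± 0.20, edgeR adjusted p = 2.81e-05). Mup21 lay between the other peripheral members and the 4 called central members. In the authors' deposited table, whose estimation method is not named, STAM + Atglistatin against STAM gave log2 values of −2.38 for Mup9, −2.33 for Mup11, −1.82 for Mup12, −2.39 for Mup17, −0.849 for Mup3, −0.79 for Mup20 and −1.62 for Mup21.

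**Figure D3:**
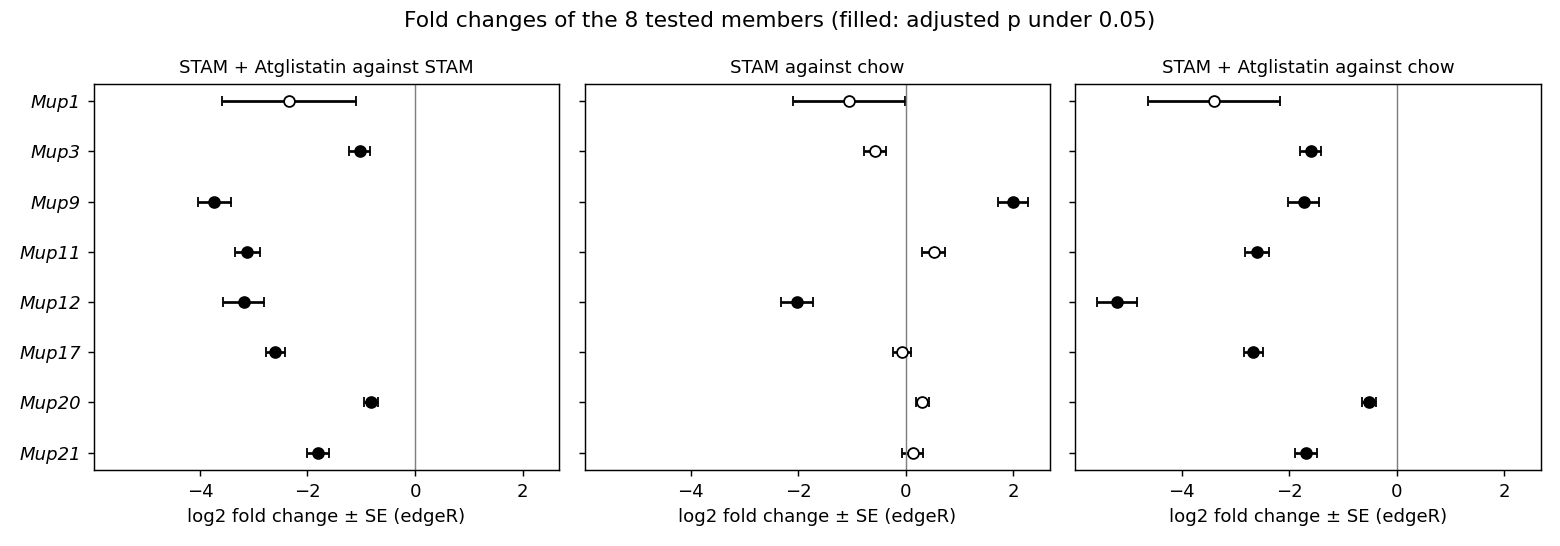
Log2 fold change with its SE (edgeR) of the 8 tested members in each comparison; filled points have an adjusted p under 0.05. In STAM + Atglistatin against STAM, 7 members lie left of 0 with filled points, while in STAM against chow only Mup9 (2.00) and Mup12 (−2.02) are filled, on opposite sides of 0.

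The make-up of the family was described as each member's share of the 10 members' counts in a library. Counts were not divided by length, and transcripts are 677 to 1033 bases. Mup3 took 64.2% ± 0.93 of family counts in STAM + Atglistatin livers, 51.1% ± 2.30 in STAM livers and 65.5% ± 6.77 in chow livers (SD, n = 3 each). Mup20 took 24.6% ± 0.650 in STAM + Atglistatin livers, 17.0% ± 1.22 in STAM livers and 12.9% ± 4.52 in chow livers. Mup11 took 5.47% ± 1.11 in STAM + Atglistatin livers, 18.8% ± 1.72 in STAM livers and 11.3% ± 2.30 in chow livers. Mup17 and Mup9 moved as Mup11 did between the STAM groups, Mup17 with 3.49% in STAM + Atglistatin and 8.30% in STAM livers, and Mup9 with 0.466% in STAM + Atglistatin and 2.43% in STAM livers. Mup21 took 1.69% in STAM + Atglistatin and 2.33% in STAM livers. All 6 shares separated STAM + Atglistatin from STAM libraries without overlap. Each had an exact two-sided permutation p of 0.1 (adjusted 0.12 over 12 tests), the smallest that 3 against 3 allows. The other tests of the 12 compared STAM with chow livers. There Mup3 was lower and Mup9, Mup11 and Mup21 were higher in STAM livers without overlap, each at the same p. Mup17 and Mup20 overlapped (permutation p = 0.4, adjusted 0.4). Shares within a library depend on each other, and no background for non-overlap was computed for them. STAM + Atglistatin against chow was not tested for shares.

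**Figure D4:**
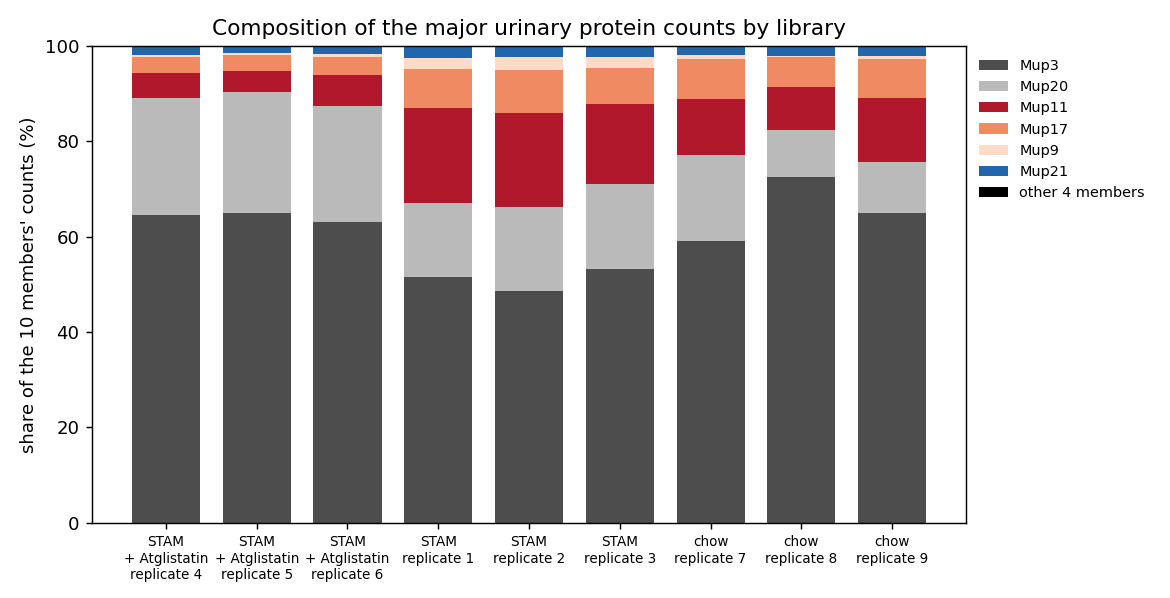
Share of the 10 members' counts taken by each member in every library (stacked bars, %). Mup3 and Mup20 fill more of the bar in the STAM + Atglistatin libraries than in the STAM libraries, and Mup11, Mup17 and Mup9 less.

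STAM against chow shares the STAM libraries with the comparison above. Here 1 member was higher, Mup9, and 1 lower, Mup12, of the 8 tested, beside 3.94% of all tested genes called, 1.95% as higher and 1.99% as lower. Mup9 and Mup12 were also the 2 members without overlap between the groups, which 20.7% of all tested genes showed, 10.1% with STAM lower. The members' median log2 fold change was 0.03 and that of all tested genes −0.0013.

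Mup9 had 272, 351 and 324 CPM in STAM livers, against 83.4, 33.6 and 121 CPM in chow livers. It was 3.99-fold higher in STAM livers (log2 2.00 ± 0.28, edgeR adjusted p = 0.000275). Mup12 ran the other way, with 5.85, 5.54 and 8.76 CPM in STAM livers, against 17.8, 30.2 and 34.1 CPM in chow livers, 4.06-fold lower (log2 −2.02 ± 0.29, edgeR adjusted p = 0.000353). Both are central members with mostly shared 3′ windows, and whether reads shifted between copies was not tested. Mup3 had 6164, 6234 and 7632 CPM in STAM livers, against 5762, 11921 and 12165 CPM in chow livers. It did not pass the test (log2 −0.58 ± 0.20, edgeR adjusted p = 0.136). Chow replicate 7 lay below all 3 STAM libraries, and without it the value was −0.85 (edgeR adjusted p = 1.26e-05). Mup11 had 2368, 2524 and 2407 CPM in STAM livers, against 1148, 1453 and 2507 CPM in chow livers. It did not pass either (log2 0.52 ± 0.21, edgeR adjusted p = 0.251), but without chow replicate 9 it stood at 0.90 (edgeR adjusted p = 0.00581). Mup17 (log2 −0.07 ± 0.17), Mup20 (0.31 ± 0.13) and Mup21 (0.12 ± 0.19) had adjusted p-values of 0.924, 0.245 and 0.855 by edgeR, in that order. The sign for Mup17 turned to 0.04 when libraries were scaled by their totals alone.

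STAM + Atglistatin against chow uses the libraries of both other comparisons. Of the 8 tested members, 7 were lower and 0 higher, beside 4.08% of all tested genes called, 1.97% as lower and 2.1% as higher. All 7 separated the groups without overlap, as did 18.6% of all tested genes, 9.03% with STAM + Atglistatin lower. Mup12 had the lowest ratio of the 7, with 1.002, 0.517 and 0.648 CPM in STAM + Atglistatin livers, against 17.8, 30.2 and 34.1 CPM in chow livers (36.9-fold lower, log2 −5.21 ± 0.38, edgeR adjusted p = 1.21e-07). Mup1 did not pass the test (log2 −3.40 ± 1.23, edgeR adjusted p = 0.17). Among the other called members, Mup17 followed at −2.67 ± 0.18, Mup11 at −2.60 ± 0.23, Mup9 at −1.73 ± 0.29, Mup21 at −1.68 ± 0.20 and Mup3 at −1.60 ± 0.20, with edgeR adjusted p-values between 7.61e-08 and 0.00157. Mup20 had the smallest change of the 7, at −0.52 ± 0.13 (edgeR adjusted p = 0.0235). Its adjusted p was 0.0648, 0.107 and 0.0682 without STAM + Atglistatin replicate 4, 5 or 6, and 0.137 without chow replicate 9.

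The list of growth hormone signalling genes holds receptors, signal carriers, feedback inhibitors and hormone-induced outputs. Of 13 tested growth hormone signalling genes, 1 was higher and 0 lower by edgeR, and DESeq2 and limma-voom gave the same counts (1.79% of all tested genes were called). An unadjusted p under 0.05 was reached by 6 of the 13, beside 10.1% of all tested genes. The gene called was Prlr, the prolactin receptor, with 93.8, 93.1 and 111 CPM in STAM + Atglistatin livers, against 40.6, 43.9 and 64.3 CPM in STAM livers (log2 1.002 ± 0.187, edgeR adjusted p = 0.00541). Leaving out STAM replicate 1 gave an adjusted p of 0.0688, and leaving out STAM replicate 2 gave 0.0572. Ghr, the growth hormone receptor, had 265, 307 and 348 CPM in STAM + Atglistatin livers, against 461, 373 and 428 CPM in STAM livers. The groups did not overlap, and the test was not passed (log2 −0.46 ± 0.16, edgeR adjusted p = 0.243; 0.0384 without chow replicate 7). Igf1, the circulating growth factor made in response to growth hormone, had 853, 953 and 950.1 CPM in STAM + Atglistatin livers, against 1003.5, 1146 and 1163 CPM in STAM livers (log2 −0.26 ± 0.11, edgeR adjusted p = 0.409). Stat5b gave −0.15 ± 0.19 (edgeR adjusted p = 0.888), Socs2, a feedback inhibitor, −0.68 ± 0.29 (edgeR adjusted p = 0.408) and Cish, another, 0.46 ± 0.46 (edgeR adjusted p = 0.832).

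In STAM + Atglistatin against STAM, 0 of 20 tested transcriptional regulators of sex-dependent liver genes were called by edgeR, with 3 at an unadjusted p under 0.05. DESeq2 called 0 and limma-voom 1. With 1.79% of all tested genes called by edgeR and 10.1% at an unadjusted p under 0.05, the edgeR counts are near the background in this comparison. Bcl6, a repressor with higher levels in male liver, had 6.71, 12.1 and 28.9 CPM in STAM + Atglistatin livers, against 36.0, 51.9 and 53.8 CPM in STAM livers. Its log2 fold change was −1.57 ± 0.45 (edgeR adjusted p = 0.11). The groups did not overlap. The edgeR adjusted p was 0.0118 without STAM + Atglistatin replicate 6, 0.00588 without chow replicate 7 and 0.0494 without chow replicate 9. It was 0.00745 with only the 2 groups fitted and 4.18e-15 with no low-count filter, and limma-voom gave 0.0403. Onecut1, whose core is printed above, gave 0.35 ± 0.34 (edgeR adjusted p = 0.825). Values for Nr3c1, the glucocorticoid receptor (−0.11 ± 0.16), Thrb, a thyroid hormone receptor (−0.34 ± 0.19), and Zhx2, a repressor of fetal liver genes (−0.49 ± 0.38), had edgeR adjusted p-values between 0.612 and 0.899. A p that misses the threshold does not show that these genes were alike in both groups. In STAM against chow, 1 of the 20 regulators was higher (Tox, background 1.95%) and 1 lower (Foxa3, background 1.99%). STAM + Atglistatin against chow gave 1 higher (Tox, background 2.1%) and 2 lower (Bcl6 and Foxa3, background 1.97%). There Bcl6 stood at −2.05 ± 0.45 (edgeR adjusted p = 0.0128), and 7 of the 20 had an unadjusted p under 0.05, beside 14.8% of all tested genes.

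Lipocalins outside the family share its protein fold. Of 10 tested, 0 were called in STAM + Atglistatin against STAM by edgeR and by DESeq2 and 1 by limma-voom, with 2 at an unadjusted p under 0.05 and a median log2 fold change of 0.05. Over all tested genes edgeR called 1.79% and 10.1% had an unadjusted p under 0.05, so an edgeR count of 0 in 10 is at the background. Rbp4, the plasma carrier of retinol, had 5481, 4431 and 4984 CPM in STAM + Atglistatin livers, against 4564, 4671 and 5049.7 CPM in STAM livers, and the groups overlapped (log2 0.06 ± 0.12, edgeR adjusted p = 0.934). Obp2a, at a mean of 3.13 CPM in STAM + Atglistatin and 10.3 CPM in STAM livers, gave −1.71 ± 0.67 (edgeR adjusted p = 0.337). Its groups did not overlap. The edgeR adjusted p was 0.0337 with only the 2 groups fitted and 0.00891 with no low-count filter, and limma-voom gave 0.0433. In STAM against chow, 3 of the 10 were higher (Orm2, Orm3 and Obp2a, background 1.95%) and 3 lower (Apom, Orm1 and Ambp, background 1.99%), and in STAM + Atglistatin against chow 2 were higher (Orm2 and Orm3, background 2.1%) and 1 lower (Apom, background 1.97%), all named after their values were seen. In STAM against chow the 3 lower became 1 without STAM replicate 1 or without chow replicate 8. The 2 higher in STAM + Atglistatin against chow became 4 without chow replicate 7 and 1 without chow replicate 9. The 1 lower became 2 without STAM + Atglistatin replicate 6 or chow replicate 7 and 0 without STAM + Atglistatin replicate 5, chow replicate 8 or chow replicate 9.

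Other genes known as male-biased in mouse liver were mostly lower too. Of 17 tested, 13 were lower and 0 higher in STAM + Atglistatin than in STAM livers (background 0.742% lower), with a median log2 fold change of −1.94. Selenbp2, a selenium-binding protein, had 56.0, 43.0 and 55.2 CPM in STAM + Atglistatin livers, against 284, 398 and 277 CPM in STAM livers (log2 −2.64 ± 0.16, edgeR adjusted p = 3.19e-08). The arachidonic acid hydroxylases Cyp4a12a (−2.03 ± 0.17) and Cyp4a12b (−2.79 ± 0.18) had edgeR adjusted p-values of 1.37e-06 and 4.23e-08. In STAM against chow, 6 of the 17 were lower (background 1.99%) and 0 higher (background 1.95%) by edgeR (median −0.41), with 1 higher by DESeq2 and by limma-voom. In STAM + Atglistatin against chow, 16 of the 17 were lower (background 1.97%) and 0 higher (background 2.1%) by edgeR (median −2.21).

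Female-biased liver genes that could be tested ran mostly in the other direction. Of 13 listed, only 7 passed the low-count filter, and 5 of these were higher and 0 lower in STAM + Atglistatin against STAM (background 1.04% higher). Acot3, a peroxisomal acyl-CoA thioesterase, had 80.8, 93.8 and 73.8 CPM in STAM + Atglistatin livers, against 17.0, 18.9 and 41.5 CPM in STAM livers (log2 1.68 ± 0.28, edgeR adjusted p = 0.00207). Cux2, a female-biased regulator, gave 2.42 ± 1.03 and did not pass (edgeR adjusted p = 0.403). The count of 5 fell to 2 without STAM + Atglistatin replicate 4 or 5 or without STAM replicate 1, to 3 without STAM replicate 2, and to 3 with DESeq2. In STAM against chow, 2 of the 7 were already higher (Cyp2b9 and Acot3, background 1.95%) and 1 lower (Cyp2b10, background 1.99%). In STAM + Atglistatin against chow, 4 were higher (background 2.1%) and 1 lower (Cyp2b10, background 1.97%). Y-linked transcripts were present in all 9 libraries, with summed counts of 1398 to 1442 in STAM + Atglistatin, 1119 to 1334 in STAM and 1050 to 1525 in chow livers. Xist, the transcript of the inactive X chromosome, had 0 to 7 counts in STAM + Atglistatin livers and 0 in STAM and chow livers. By these counts the chow mice, whose sex is not stated, were male.

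**Figure D5:**
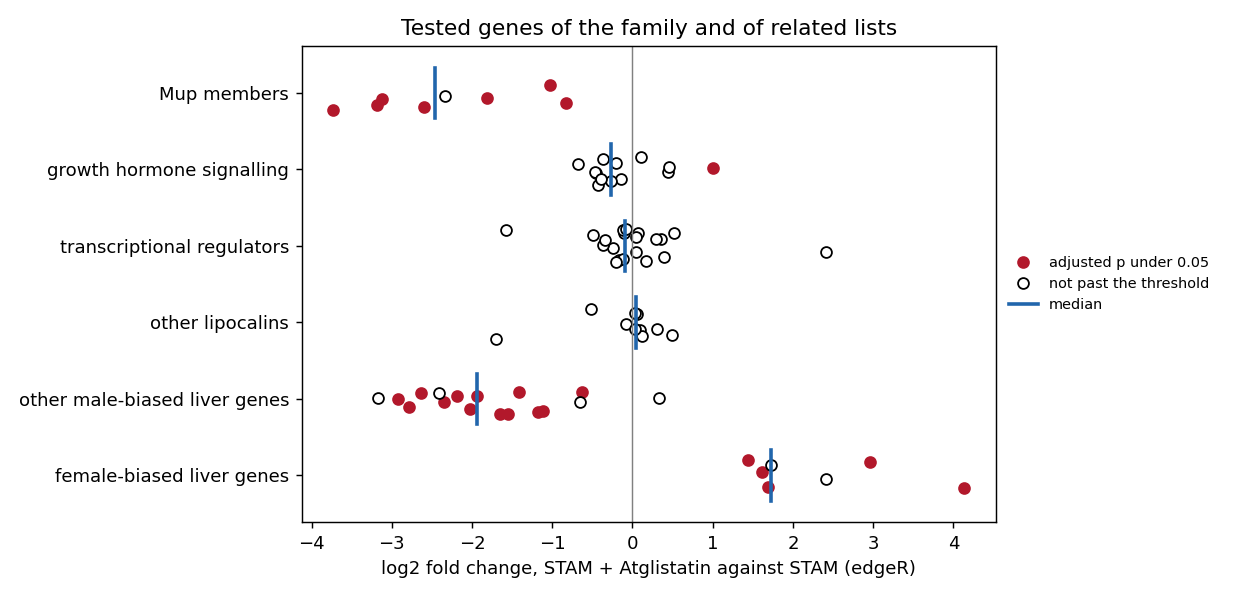
Log2 fold change of STAM + Atglistatin against STAM (edgeR, horizontal) for the tested Mup members and for each list of related genes; filled points have an adjusted p under 0.05, and vertical lines are medians (Cux2 stands in 2 lists). The Mup members and other male-biased genes lie mostly left of 0, with medians of −2.47 and −1.94. The other medians were −0.26 for growth hormone signalling, −0.10 for transcriptional regulators, 0.05 for other lipocalins and 1.73 for female-biased genes.

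Outside the Mup family, the 6 genes whose log2(CPM + 1) followed the family sum most closely over the 9 libraries were Aadat, Ces3a, Cyp4a12a, Aox3, Enpp2 and Cyp7b1, among 7903 candidates. Pearson's r was 0.98 for Aadat and Ces3a and 0.97 for the other 4. These are descriptions over libraries that share 3 group levels, and carry no test. Cyp7b1, an oxysterol hydroxylase, is itself among the male-biased genes (log2 −1.94 ± 0.18 in STAM + Atglistatin against STAM). The amino acid enzyme Aadat (−0.71 ± 0.14) and the carboxylesterase Ces3a (−0.73 ± 0.14) had smaller values in the same comparison.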

How the data were processed

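RNA of the left liver lobe was made into QuantSeq 3′ mRNA libraries, per the labels' protocols. Reads were aligned with STAR to GRCm38, per the submitters' processing notes. Version, counting tool, annotation, strand setting and treatment of multi-mapped reads: not given in the sources used here. As deposited by the authors, the file holds raw counts per gene for 9 libraries, 7409090 to 9911855 each, with a table of log2 fold changes and p-values per comparison, whose headers name no tool. It was used only where named.

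From the counts, 7 rRNA entries (0.26% to 0.529% of counts) were left out. One edgeR 4.0.16 quasi-likelihood fit in R 4.3.3 (TMM, filterByExpr) covered the 9 libraries and gave 3 comparisons, with Benjamini-Hochberg adjustment over 12660 genes and calls at an adjusted p under 0.05. The biological coefficient of variation was 0.236. The method was tested on simulated data. Shares used an exact two-sided permutation test. Alternatives were DESeq2 1.42.0, limma 3.58.1 (voom), other scalings and filters, and leaving out each library.

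All 10 members are named. From each related list, the 3 genes with the smallest p in STAM + Atglistatin against STAM could be named, with fixed further regulators; results of some listed genes are not reported here. Members and lists were chosen with earlier results of these data known. Members are copies with shared 3′ sequence, so their values are not independent.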

Additional observations from a re-analysis of the deposited data

How the results depend on the processing

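In STAM + Atglistatin against STAM, between 6 and 7 members were lower when single libraries were left out, and the family ratio stayed between 0.376 and 0.412; without Mup3, the member with the most counts, it was 0.287. In STAM + Atglistatin against chow these were 6 to 8 members and 0.29 to 0.39. In STAM against chow, 2 members were lower with no low-count filter and with limma-voom, and 2 were higher with no low-count filter; leaving out libraries gave 1 to 2 in each direction. The family ratio of STAM to chow was 0.742 to 0.996 without single libraries and 1.27 without Mup3. Over the libraries left out, log2 values of STAM against chow ran between −0.26 and 0.21 for Mup17 and between −0.12 and 0.36 for Mup21, and Mup17 was 0.036 with library totals. In STAM + Atglistatin against STAM they ran between −0.27 and 0.0051 for Stat5b, −0.26 and 0.029 for Nr3c1, and −0.022 and 0.14 for Rbp4.

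In the same comparison, growth hormone signalling genes gave 0 to 1 calls in each direction without single libraries. Regulators called lower numbered 1 with limma-voom and 0 to 1 without single libraries, and 1 lipocalin was lower with limma-voom. In STAM against chow, 1 to 3 lipocalins were lower and 3 to 4 higher without single libraries. Against chow, STAM + Atglistatin livers gave 0 to 2 lower and 1 to 4 higher, with 2 lower by DESeq2 and by limma-voom. Female-biased genes called higher numbered 3 with DESeq2 and 2 to 5 without single libraries. Male-biased genes called higher in STAM against chow numbered 1 with library totals, DESeq2 and limma-voom, and 0 to 1 without single libraries. The cause of these shifts was not tested. Over all genes, edgeR, DESeq2 and limma-voom called 226, 309 and 293 genes in STAM + Atglistatin against STAM. Counts of 0 to 30 for Mup1, Mup7 and Mup10 limit what can be said of them. No paired analysis was possible because the groups share no replicate number.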

Other observations

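Of the 39 other entries with a Mup name, 19 had no count in any library and 9 were tested. In STAM + Atglistatin against STAM, 4 of these 9 were lower (background 0.742%) and 0 higher (background 1.04%) by edgeR, with log2 fold changes between −2.66 and −0.31 for the 9. The 4, named after their values were seen, were Mup18 (−2.66 ± 0.32, adjusted p = 6.12e-05), Mup16 (−2.47 ± 0.22, adjusted p = 1.9e-06), Mup15 (−2.10 ± 0.27, adjusted p = 0.000143) and Mup6 (−2.04 ± 0.48, adjusted p = 0.0349). In STAM against chow 1 of the 9 was lower (background 1.99%), Mup16 (−0.95 ± 0.20, adjusted p = 0.0069), and 0 were higher. Summed over all 49 entries, the family stood at 5424, 4822 and 5191 CPM in STAM + Atglistatin livers, 12171, 13045 and 14536 CPM in STAM livers, and 9999, 16698 and 19193 CPM in chow livers, so the entries outside the 10 members added little.

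The nearest tested genes outside the cluster did not pass the test in STAM + Atglistatin against STAM. Snx30, a sorting nexin 52067 bases before it, gave −0.55 ± 0.25 (edgeR adjusted p = 0.477), and Slc31a2, a copper transporter 111699 bases after it, gave 0.06 ± 0.25 (edgeR adjusted p = 0.972).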
